A study of Caenorhabditis elegans with 8 samples.

Results

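The genes of nuclear hormone receptors named nhr- and a number were compared between aptf-1(gk794) mutant and N2 wild-type larvae of Caenorhabditis elegans. nhr-23, nhr-25 and nhr-85 were left out of this set and are given with other receptors. The reference table lists 280 such genes, and 278 of them had at least 1 probe on the array. A gene was kept where at least 1 of its probes was itself well above background on all 4 arrays of a genotype. This left 182 genes, or 65.5% of those on the array, against 75.4% of all named genes. aptf-1 encodes an AP2 transcription factor that the study examined for its role in sleep, and the allele gk794 deletes part of the gene. Whole hermaphrodites of both genotypes were grown at 21.5 °C on plates with E. coli OP50. About 200 larvae were picked by hand for each sample, 4 of aptf-1(gk794) and 4 of N2, at the stage labelled L4 sleep, the quiet time before the last molt. Per the study, aptf-1 mutant larvae lacked detectable immobility in its sleep assays, so the genotypes may differ in behavior as well. A single mutant allele was used.

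Nuclear hormone receptors are transcription factors with a DNA-binding domain of zinc fingers and a domain that can bind small lipophilic molecules such as sterols and fatty acids. The nematode C. elegans has far more of them than insects or vertebrates have, and most arose in nematodes from an ancestor like HNF4, a regulator of liver and gut metabolism in mammals. Best known in worms are receptors of the intestine that adjust fat, vitamin and drug metabolism to the diet, and receptors of the epidermis that time the molts. Most of the family has no assigned role.

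The transcript of the deleted gene was read first. aptf-1 has 1 probe, whose log2 signal, after subtraction of the array's 75th percentile, was -5.96, -7.22, -4.29 and -7.13 in aptf-1(gk794), and -5.34, -5.24, -5.18 and -5.58 in N2. The array labelled aptf-1(gk794) replicate 3 thus had the highest value of all 8, and the other 3 mutant arrays lay below every N2 array. This probe was well above background on 4 N2 arrays but on only 2 mutant arrays, so its mutant values are partly near background. Whether the probe lies within the deletion was not analysed here. The neuropeptide gene flp-11 set the labelled groups apart, at -0.68 ± 0.03 in aptf-1(gk794) and 0.50 ± 0.07 in N2 (SD, n = 4 each; limma, adjusted p = 0.00277), and replicate 3 lay with the other mutants. The arrays lay on 2 slides with 2 arrays of each genotype on each slide. The mutant arrays were always at positions 3 and 4 of a slide and the N2 arrays at positions 1 and 2, so position and genotype cannot be told apart. The 4 arrays per genotype limit the precision of all values below.

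Of the 182 receptor genes, 173 were well above background on all 8 arrays. The other 9 passed the filter through 1 genotype. nhr-140, nhr-172, nhr-237 and nhr-241 were detected on 4 mutant and 3 N2 arrays, and nhr-260 on 4 mutant and 2 N2 arrays. nhr-51, nhr-118 and nhr-173 were detected on 3 mutant and 4 N2 arrays, and nhr-253 on 2 mutant and 4 N2 arrays. Of the 96 genes that did not pass, 60 had no probe well above background on any array, and 8 just missed, with their best probe on 3 arrays of a genotype. Among these 8 were nhr-2, a receptor of the early embryo, with 3 mutant and 3 N2 arrays, and nhr-111, a member of a branch shared with insects, with 3 mutant and 2 N2 arrays. No gene was detected on all 4 arrays of one genotype and on 0 of the other. The number of receptor probes well above background was 333, 315, 332 and 320 of 439 on the mutant arrays, and 301, 337, 326 and 330 on the N2 arrays, so the genotypes overlapped.

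Detection differed by chromosome. The family is concentrated on chromosome V, where 119 receptor genes (67.6% of those on the array) passed the filter, against 59.7% of all genes on that chromosome. On chromosome I, 6 of 22 receptor genes (27.3%) passed, against 85.7% of all genes there. On the other chromosomes, 9 of 15 passed on II, 6 of 8 on III, 26 of 34 on IV and 16 of 23 on X.

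**Figure D1:**
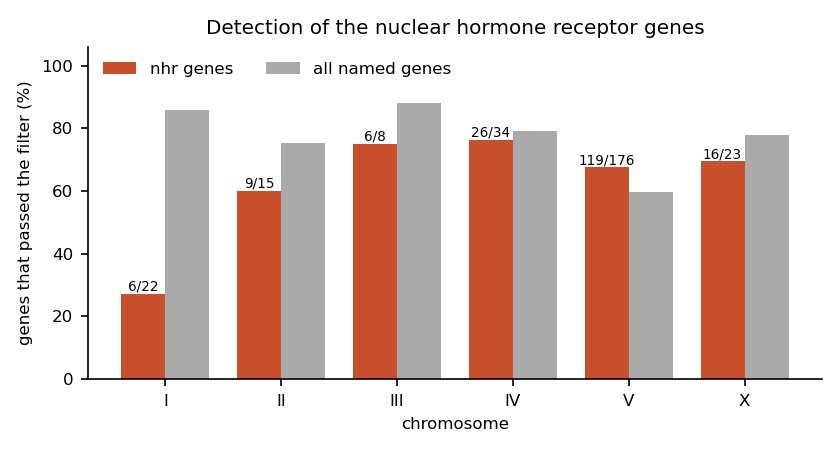
Share of genes that passed the filter, in percent, by chromosome, for the receptor genes (left bar of each pair, with the number passed over the number on the array) and for all named genes (right bar). The receptor genes passed less often than all genes on 5 of the chromosomes, by the widest margin on I (27.3% against 85.7%), and more often on V (67.6% against 59.7%).

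No receptor gene passed the threshold of an adjusted p under 0.05 with a change of at least 1.5-fold. In limma, 0 of 182 passed in either direction, where 0.0164% of the 18313 genes and unnamed targets tested were called higher and 0.0437% were called lower in aptf-1(gk794). The smallest adjusted p of a receptor gene was 0.210, for nhr-11. With single probes fitted instead of genes, 0 of 307 receptor probes were called, and the smallest adjusted p was 0.145. Over every alternative fitted by gene, the smallest adjusted p of a receptor gene in limma was 0.184.

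The differences, given throughout as the log2 value of aptf-1(gk794) minus that of N2, were centred near those of all genes. Their median was -0.04 with quartiles of -0.19 and 0.09, and the median of all genes was -0.03 with quartiles of -0.17 and 0.12. They ranged from -0.99 for nhr-254 to 1.24 for nhr-74. Of the 182 genes, 105 had a negative difference (57.7%, against 54.7% of all genes) and 77 a positive one. The median standard error was 0.13, against 0.14 for all genes. For 125 receptor genes (68.7%, against 61.7% of all genes) the 95% confidence interval of the difference lay wholly within a change of 1.5-fold in either direction. The intervals had no correction for the number of genes.

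At an unadjusted p under 0.05, without a minimum fold change, 15 receptor genes were higher in aptf-1(gk794) (8.24% of 182), where the share of all genes was 4.48%. In the other direction 15 were lower (8.24%), where the share of all genes was 7.75%. The groups of arrays did not overlap for 5 genes with all mutant arrays above N2 (2.75%, against 3.09% of all genes) and for 10 genes with all mutant arrays below N2 (5.49%, against 4.96%). Past 1.5-fold, with no test, lay 5 genes upward (2.75%, against 4.73% of all genes) and 5 downward (2.75%, against 3.71%). The shares without overlap were thus close to those of all genes. Of the 15 genes higher at an unadjusted p, nhr-237 and nhr-260 had passed the filter only through the mutant arrays. Past 1.5-fold, nhr-260 upward had passed only through the mutant arrays, and nhr-51 and nhr-118 downward only through the N2 arrays. Among the 173 genes detected on all 8 arrays, 28 had an unadjusted p under 0.05 in either direction (16.2%, against 12.1% of all genes under that filter). With normexp background correction, 20 receptor genes had an unadjusted p under 0.05 in either direction, a share of 10.99%, against 12.1% of all genes. The receptor share was the higher one with quantile normalization (14.8%, against 11.8%), median scaling (15.4%, against 12.2%) and the deposited intensities (14.8%, against 11.8%). With no filter it was 13.7%, against 8.91%, and with the median of probes 17.03%, against 11.99%. Without mutant replicate 3 it was lower (12.1%, against 12.9%), and without any other single array it was higher.

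**Figure D2:**
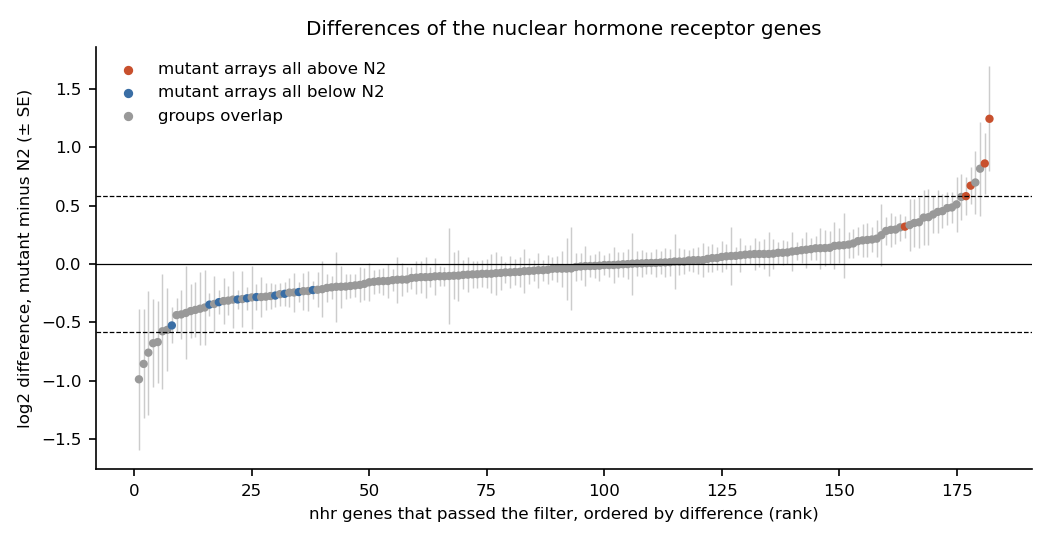
Difference in log2 signal between aptf-1(gk794) and N2 for each of the 182 receptor genes, ordered by difference, with its standard error from limma as a vertical line; dashed lines mark a change of 1.5-fold. Orange points are the 5 genes whose mutant arrays all lay above N2, blue points the 10 genes whose mutant arrays all lay below N2, and grey points those that overlapped. Most of the largest negative differences have long error lines and overlapping groups.

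Among the receptors of fat metabolism and fasting, all 8 passed the filter, 0 were called, 6 had a positive and 2 a negative difference, and their median was 0.03. Array values are given as log2 signal after subtraction of the 75th percentile, in the order of replicates 1 to 4. nhr-49, a main regulator of fat desaturation and of the fasting response, had 1.28, 0.91, 1.26 and 1.12 in aptf-1(gk794) and 1.12, 1.02, 1.18 and 1.10 in N2. Its difference was 0.03 ± 0.10 (SE), with a 95% confidence interval of -0.20 to 0.27, and the groups overlapped. nhr-62, which is needed for the response to dietary restriction, had -1.36, -1.44, -1.77 and -1.46 in aptf-1(gk794), against -2.08, -1.73, -1.97 and -2.19 in N2. Its mutant arrays were the higher ones except replicate 3, which lay just below N2 replicate 2. The difference was 0.48 ± 0.13 (SE; limma, unadjusted p = 0.0061, adjusted p = 0.251), and it was 0.63 within slide 1 and 0.34 within slide 2. nhr-76, which passes a serotonin signal on to fat breakdown in the intestine, had -2.82, -2.89, -2.98 and -3.10 in aptf-1(gk794), against -2.73, -2.71, -2.49 and -2.78 in N2. Here every mutant array lay below every N2 array, with a difference of -0.27 ± 0.10 (SE; limma, adjusted p = 0.355). nhr-80, which acts on the same desaturase genes as nhr-49, differed by 0.21 ± 0.15 (SE), and its groups overlapped. In a fit with slide and a linear term for position on the slide, this value was -0.25. No position held both genotypes, so this fit, here and below, depends on a straight trend across positions that the arrays cannot check. nhr-13, nhr-64, nhr-66 and nhr-69 differed by -0.14 to 0.12, with overlapping groups.

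The 3 receptors of propionate and vitamin B12 metabolism had differences of -0.04 (nhr-10), -0.12 (nhr-68) and -0.08 (nhr-114), with standard errors of 0.11, 0.09 and 0.15. nhr-10 and nhr-68 switch on a second route of propionate breakdown when vitamin B12 is scarce, and nhr-114 protects worms on diets low in the vitamin. Their groups overlapped, and the 95% intervals lay between -0.42 and 0.26.

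Of the 6 receptors of the responses to drugs, pathogens, metals and low oxygen, 1 had a positive and 5 had a negative difference, with a median of -0.11 and 0 calls. nhr-8, which acts in drug resistance and in cholesterol balance, had -1.64, -1.78, -1.74 and -1.81 in aptf-1(gk794) and -1.60, -1.65, -1.34 and -1.35 in N2. Only the highest mutant value, that of replicate 1, reached the range of N2, whose lowest value was replicate 2. The difference was -0.26 ± 0.10 (SE; limma, adjusted p = 0.374). nhr-45, which acts in detoxification when mitochondria are impaired, had -0.54, -0.62, -0.55 and -0.58 in aptf-1(gk794), against -0.53, -0.40, -0.10 and -0.24 in N2. Its groups did not overlap, but N2 replicate 1 lay 0.015 above the nearest mutant array, and the difference was -0.25 ± 0.10 (SE; limma, adjusted p = 0.388). nhr-176, which mediates the induction of a cytochrome P450 by a drug, had -2.82, -2.68, -2.90 and -2.88 in aptf-1(gk794) and -3.28, -3.28, -2.82 and -3.10 in N2. N2 replicate 3 lay among the mutant arrays, and the difference was 0.30 ± 0.12 (SE; limma, adjusted p = 0.388). In the fit with slide and position it was -0.10. The others were nhr-14 (-0.14), which acts in immunity and iron uptake, nhr-57 (-0.08), a known target of the hypoxia factor HIF-1, and nhr-86 (-0.02), which responds to a bacterial toxin.

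Of 7 receptors with a counterpart outside nematodes, 6 passed the filter, all 6 differences were negative, 0 were called, and the median was -0.28. nhr-48, a relative of the vitamin D receptor, had -2.14, -2.28, -2.08 and -2.06 in aptf-1(gk794), against -1.95, -1.99, -1.70 and -1.74 in N2. The groups did not overlap, with a difference of -0.29 ± 0.10 (SE; limma, adjusted p = 0.330), and 3 probes were averaged. nhr-6, the worm relative of NR4A receptors, which shapes the spermatheca, had -3.20, -2.41, -2.62 and -2.46 in aptf-1(gk794) and -1.40, -2.75, -2.32 and -2.74 in N2. Here 1 high N2 array, replicate 1, and 1 low mutant array, replicate 1, lay apart from the other 6, and the difference was -0.37 ± 0.32 (SE). Within slide 2 it was 0.20. nhr-67, the relative of tailless, which acts in the uterine anchor cell, had the same N2 array on top: its values were -2.59, -2.45, -2.36 and -2.30 in aptf-1(gk794) and -1.41, -2.05, -2.46 and -2.57 in N2. nhr-91, a relative of the germ cell nuclear factor, differed by -0.24 ± 0.12 (SE), and nhr-41, a relative of the testicular receptors, by -0.04 ± 0.36 (SE). nhr-8 also belongs here and was given above.

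The receptors of development shared nhr-6 and nhr-67 with that list. Of 5 receptors 4 passed the filter, their differences were all negative, and their median was -0.32 with 0 calls. nhr-60, which is needed in the embryonic and larval epidermis, had -4.21, -4.40, -4.07 and -4.44 in aptf-1(gk794), against -3.98, -3.92, -3.97 and -3.86 in N2. Each mutant array lay below each N2 array, by 0.35 ± 0.10 on average (SE; limma, unadjusted p = 0.0086, adjusted p = 0.286), and the differences were -0.33 and -0.36 within the 2 slides. nhr-40, which acts in muscle development, differed by -0.07 ± 0.09 (SE).

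**Figure D3:**
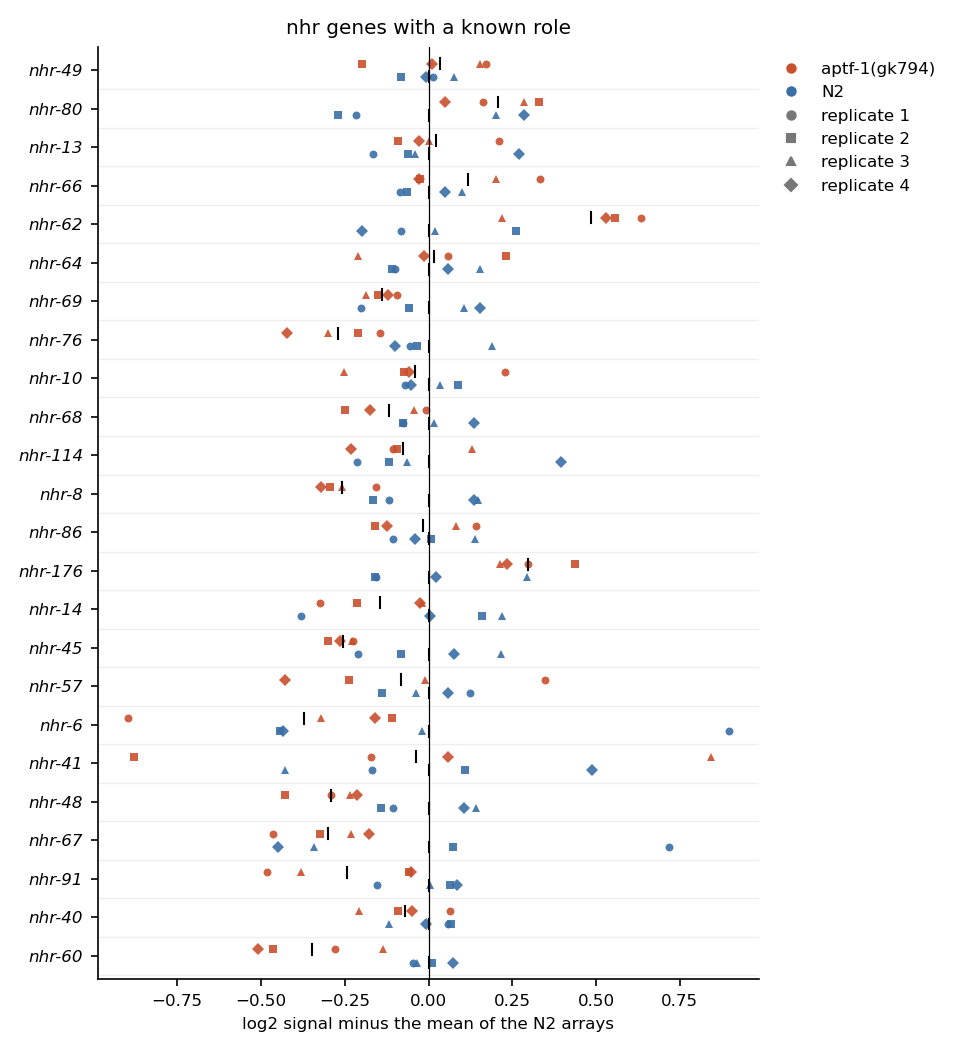
Log2 signal on each array minus the mean of the 4 N2 arrays, for the 24 receptor genes with a known role that passed the filter; for each gene the aptf-1(gk794) arrays (orange) stand above the N2 arrays (blue), marker shapes give the replicate, and black ticks mark the group means. Most groups overlap; nhr-76, nhr-45, nhr-48 and nhr-60 have all mutant arrays below N2, and nhr-62 has 3 of 4 mutant arrays above N2.

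Of the 15 genes whose groups did not overlap, those with mutant arrays above N2 have no role assigned here. nhr-11 had -1.44, -2.05, -1.97 and -1.82 in aptf-1(gk794), against -2.64, -2.59, -2.54 and -2.20 in N2. The lowest mutant array still lay 0.14 above the highest N2 array, and the difference was 0.67 ± 0.16 (SE), a 1.59-fold change, with an unadjusted p of 0.0029 and an adjusted p of 0.210 in limma. It rested on 1 of the 4 probes for this gene, since the others were well above background on 0 arrays of either genotype. It was 0.84 within slide 1 and 0.50 within slide 2. nhr-205 had -2.25, -2.95, -2.81 and -2.77 in aptf-1(gk794), against -3.35, -3.14, -3.49 and -3.15 in N2. Mutant replicate 1 was the highest of them, and the difference was 0.58 ± 0.16 (SE; limma, adjusted p = 0.275). nhr-181 had -3.98, -4.28, -3.98 and -4.25 in aptf-1(gk794), against -4.79, -4.52, -4.82 and -5.80 in N2. The low N2 replicate 4 added to a difference of 0.86 ± 0.26 (SE; limma, adjusted p = 0.294). nhr-256 had -0.66, -0.77, -1.01 and -0.80 in aptf-1(gk794), against -1.20, -1.09, -1.18 and -1.04 in N2, with 2 probes averaged. Its mutant replicate 3 came within 0.035 of N2 replicate 4, and the difference was 0.32 ± 0.09 (SE; limma, adjusted p = 0.288).

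nhr-74 had the largest positive difference of the family, and 2 arrays carried it. Its values were -4.42, -4.51, -2.52 and -2.93 in aptf-1(gk794), against -5.07, -4.82, -4.82 and -4.65 in N2. Mutant replicates 3 and 4 lay far above the other mutant arrays, and those lay just above N2. The difference was 1.24 ± 0.45 (SE; limma, adjusted p = 0.352), and both tested probes had it, at 1.31 and 1.18. Replicates 3 and 4 share slide 2, where the difference was 2.01, while it was 0.48 within slide 1. nhr-43, singled out after its values were seen, was also highest on mutant replicates 3 and 4, with -2.63, -2.92, -1.66 and -1.94 in aptf-1(gk794) and -3.53, -3.73, -3.02 and -2.14 in N2. Its groups overlapped through N2 replicate 4, and the difference was 0.82 ± 0.40 (SE). The molting gene mlt-10 stood out on the same pair of arrays, at -2.83, -2.35, 2.19 and 1.54 in aptf-1(gk794), against -3.49, -1.97, -3.79 and -2.77 in N2. Of the 7 markers of epidermis and molt, 5 were tested, 4 had a positive difference and 1 a negative one. Their mean deviation from N2 was -0.11, -0.19, 1.33 and 1.05 on the mutant arrays, and lay between -0.20 and 0.35 on the N2 arrays. dpy-7 and bli-1, cuticle collagens, were not well above background on enough arrays to be tested. noah-2, which encodes an apical matrix protein, was the negative one, at -0.96 ± 0.26 (SE; limma, adjusted p = 0.244), with every mutant array below every N2 array. The 4 tested markers other than mlt-10 had mean deviations of -0.18, -0.40, 0.36 and 0.18 on the mutant arrays, against -0.08 to 0.17 on the N2 arrays. mlt-10 thus added most to the high list values of replicates 3 and 4. mlt-11 (-2.58 and -2.21) and noah-1 (-4.16 and -4.45) were also highest on mutant replicates 3 and 4. nas-37 was highest on mutant replicate 3 but not high on replicate 4, and noah-2 was low on both. The part of the molt stage in the values of nhr-74 and nhr-43 was not tested.

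Among the genes with mutant arrays below N2, nhr-97 had the largest difference. Its values were -2.74, -3.08, -2.60 and -3.29 in aptf-1(gk794), against -2.30, -2.48, -2.44 and -2.39 in N2. The N2 arrays lay close together, and mutant replicates 2 and 4, both at position 4, were the lowest. The difference was -0.53 ± 0.15 (SE; limma, unadjusted p = 0.00925, adjusted p = 0.286), and all 5 probes had it, at -0.58 to -0.43. It was -0.54 and -0.51 within the 2 slides, but 0.023 in the fit with slide and position (limma, adjusted p = 0.997). nhr-158 had -4.66, -4.81, -4.80 and -4.88 in aptf-1(gk794), against -4.40, -4.49, -4.50 and -4.56 in N2. The difference was -0.30 ± 0.08 (SE; limma, unadjusted p = 0.0054, adjusted p = 0.237). nhr-94 had -2.56, -2.47, -2.80 and -2.51 in aptf-1(gk794), against -2.39, -2.29, -2.16 and -2.19 in N2, and 4 probes were averaged. Mutant replicate 3 was the lowest, and the difference was -0.33 ± 0.10 (SE; limma, adjusted p = 0.299). nhr-195 had -1.84, -1.81, -2.09 and -1.78 in aptf-1(gk794), against -1.71, -1.50, -1.75 and -1.43 in N2. Its groups were 0.022 apart at the nearest, and the difference was -0.28 ± 0.11 (SE; limma, adjusted p = 0.377). The last of these genes, nhr-50 and nhr-65, differed by -0.22 ± 0.08 and -0.24 ± 0.09 (SE). For nhr-50 the fit with slide and position gave 0.00076.

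**Figure D4:**
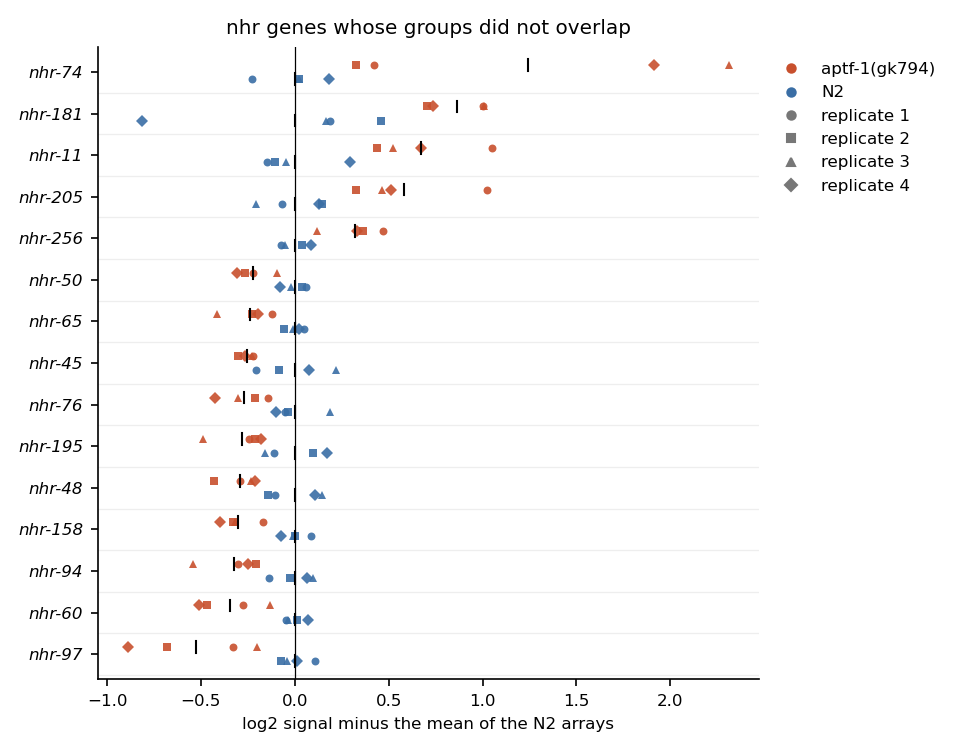
Log2 signal on each array minus the mean of the 4 N2 arrays, for the 15 receptor genes whose groups did not overlap; for each gene the aptf-1(gk794) arrays (orange) stand above the N2 arrays (blue), marker shapes give the replicate, and black ticks mark the group means. The wide spread of nhr-74 comes from mutant replicates 3 and 4, and that of nhr-97 from mutant replicates 2 and 4, while most lower genes lie within 0.5 of N2.

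The following genes are outside the set named by rule and were singled out after their values were seen. nhr-254 had -2.85, -4.48, -2.64 and -4.98 in aptf-1(gk794), against -2.45, -2.23, -3.87 and -2.45 in N2. Next to it in size, nhr-239 had -3.14, -5.23, -4.46 and -5.30 in aptf-1(gk794), against -3.93, -3.26, -4.06 and -3.46 in N2. nhr-253 had -5.01, -6.43, -6.12 and -7.61 in aptf-1(gk794), against -5.28, -5.59, -5.89 and -6.10 in N2. For all 3 genes the lowest values were those of mutant replicates 2 and 4, the arrays at position 4, and the groups overlapped. Their differences were -0.99 ± 0.60, -0.85 ± 0.47 and -0.58 ± 0.49 (SE), the first and second of which were the most negative of the family. nhr-51 and nhr-118, at -0.67 ± 0.35 and -0.68 ± 0.38 (SE), were also lowest on these 2 arrays, and nhr-77, at -0.76 ± 0.53 (SE), was not. Mutant replicates 2 and 4 were also dimmer arrays, with 75th percentiles of 432 and 545, against 834 and 842 on mutant replicates 1 and 3. The dimmest array of all was N2 replicate 1, at 317. The part of array brightness in these values was not tested. nhr-253, nhr-51 and nhr-118 had passed the filter only through the N2 arrays, so their lower mutant values are not independent of the filter. nhr-118 rested on 1 of its 5 probes, and the others were well above background on 0 arrays. Without both position 4 arrays, an alternative added after the data had been seen, nhr-254 differed by 0.0064 and nhr-253 by 0.15. This set mutant replicates 1 and 3 against all 4 N2 arrays. The dropped arrays hold the lowest values of these genes, so a less negative difference was bound to follow. In the fit with slide and position the differences of nhr-254, nhr-253, nhr-239, nhr-51 and nhr-118 were 1.82, 1.45, 0.77, 1.19 and 1.02. Their adjusted p in limma was 0.805 to 0.957 in that fit, which depends on a straight trend across positions. The part of array position in these values cannot be told apart from that of genotype.

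**Figure D5:**
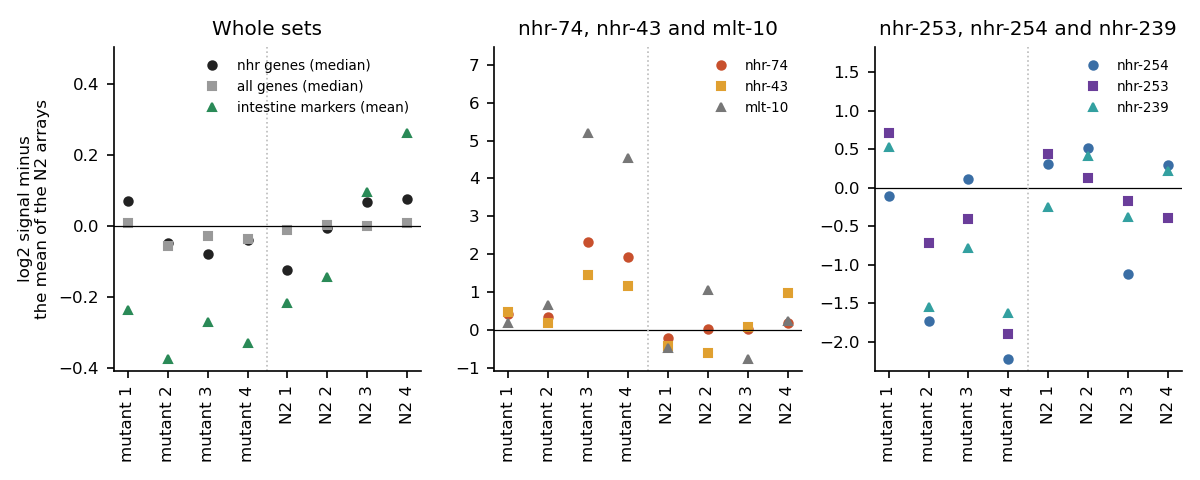
Log2 signal on each array minus the mean of the N2 arrays, with the 4 aptf-1(gk794) arrays left of the dotted line and the 4 N2 arrays right of it. The vertical scales of the panels differ. The left panel gives the medians of the 182 receptor genes and of all genes and the mean of 7 intestine markers, the middle panel nhr-74, nhr-43 and mlt-10, which are high on mutant 3 and 4, and the right panel nhr-253, nhr-254 and nhr-239, which are low on mutant 2 and 4.

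The remaining genes at an unadjusted p under 0.05 had overlapping groups. Higher in aptf-1(gk794) were nhr-21 (0.48), nhr-58 (0.45), nhr-142 (0.42), nhr-156 (0.28), nhr-168 (0.45), nhr-180 (0.31), nhr-237 (0.57) and nhr-260 (0.70). Lower were nhr-104 (-0.27) and 3 genes of chromosome V that lie next to each other, nhr-225, nhr-115 and nhr-226. nhr-115 had -1.58, -0.99, -1.44 and -1.15 in aptf-1(gk794), against -0.75, -0.94, -0.99 and -0.73 in N2, a difference of -0.44 ± 0.14 (SE; limma, adjusted p = 0.325). nhr-225 differed by -0.31 ± 0.12 and nhr-226 by -0.28 ± 0.11 (SE). In all 3 genes mutant replicates 1 and 3 were lower than mutant replicates 2 and 4. The same run of neighbours held nhr-228, which differed by 0.01 ± 0.10 (SE), and nhr-227, which did not pass the filter.

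Many receptor genes lie next to another one: the nhr genes of the reference table, on the array or not, formed 47 runs of neighbours, with 144 genes in all and up to 8 in a run. The 93 genes in runs that passed the filter had a median difference of -0.01, and the others a median of -0.05. Of 55 pairs of neighbours that both passed, 32 had differences of the same sign. By chromosome, the median was 0.02 on I, -0.06 on II, -0.05 on III, -0.07 on IV, -0.01 on V and -0.14 on X, where 14 of 16 genes had a negative difference. The medians of all genes lay between -0.05 (X) and -0.02 (I). The share of negative differences among all genes of X was not counted, so the sign count on X has no background beside it.

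Probes of one gene did not always move together. Of the 50 genes with at least 2 tested probes, 34 had all of them on the same side of 0, and the other 132 genes rested on 1 probe. The widest gap was that of nhr-27, whose 4 probes differed by -0.90 to 0.69, so its mean of -0.19 ± 0.30 (SE) describes none of them. nhr-47 had probes at -0.57 and 0.13. For nhr-58 the probes lay at 0.74 and 0.17, both positive, and the first of them had the smallest adjusted p of any receptor probe, 0.145.

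The level of the whole family varied between arrays of one genotype as much as between genotypes. The median deviation of the 182 genes from the N2 mean was 0.07, -0.05, -0.08 and -0.04 on the mutant arrays, and -0.12, -0.0039, 0.07 and 0.08 on the N2 arrays. N2 replicate 1, on slide 1, was the lowest of the 8 arrays. Within slide 1 the median difference was 0.05, and within slide 2 it was -0.11. The gene-wise SD between arrays had a median of 0.17 in aptf-1(gk794) and 0.19 in N2, against 0.19 and 0.18 for all genes. When the mutant array with the highest aptf-1 value (replicate 3) was left out, 0 receptor genes were called in limma. In that fit 22 had an unadjusted p under 0.05 (12.1%, against 12.9% of all genes), and the median difference was -0.01, against -0.03 for all genes.

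Markers of other tissues were set beside these values, because many receptors of fat, vitamin and drug metabolism act in the intestine, and in whole animals fewer cells of a type and less RNA per cell cannot be told apart. All 7 intestine markers had a negative difference, with a median of -0.25 and 0 calls. The mean deviation of the list was -0.37 to -0.24 on the mutant arrays and -0.22 to 0.26 on the N2 arrays, so the groups did not overlap. The nearest arrays lay close, at -0.237 (mutant replicate 1) and -0.215 (N2 replicate 1). The other N2 arrays had -0.14, 0.10 and 0.26. act-5, an actin of intestinal microvilli, differed by -0.55 ± 0.11 (SE; limma, adjusted p = 0.134), pept-1, a peptide transporter, by -0.46 ± 0.14, and elt-2, the GATA factor of the intestine, by -0.36 ± 0.14 (SE). The part of the intestine in the receptor values was not tested. Body wall muscle markers were negative in 4 of 4 genes with a median of -0.16, the 5 neuronal markers had a median of 0.01, the 3 of the pharynx 0.05, and the 4 of the germ line 0.0040. Of 6 genes of adults and embryos 4 were negative, with a median of -0.35, and the yolk protein gene vit-6 differed by -0.46 ± 0.16 (SE). In log2 signal scaled as above, their levels over all arrays ran from egg-1 (0.93 to 1.84) up to vit-2 (5.75 to 6.80). The tested markers of epidermis and molt other than mlt-10 lay between -5.45 and -2.21. mlt-10 lay between -3.79 and -1.97, except on mutant replicates 3 and 4 (2.19 and 1.54). Whether these levels match the labelled stage was not tested.

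Of 9 other nuclear receptors, kept outside the family counts, 5 passed the filter with 0 calls. nhr-85, a relative of insect E75 and of Rev-erb that takes part in developmental timing, had -3.15, -3.76, -3.96 and -3.95 in aptf-1(gk794), against -2.88, -2.40, -3.12 and -3.44 in N2. The highest mutant array lay within the N2 range, and the difference was -0.74 ± 0.26 (SE; limma, unadjusted p = 0.020, adjusted p = 0.339). daf-12, the receptor of the dauer decision, differed by -0.34 ± 0.14 (SE; limma, adjusted p = 0.384). nhr-25, which is required for molting, had -2.45, -4.66, -2.10 and -3.22 in aptf-1(gk794), against -4.005, -4.33, -3.78 and -3.14 in N2, with groups that overlapped widely and a difference of 0.71 ± 0.54 (SE). nhr-23, the ROR relative that drives molting genes, differed by -0.03 ± 0.11, and sex-1, a counter of X chromosomes, by 0.0042 ± 0.09 (SE). The neuronal receptors unc-55, odr-7 and fax-1 and the zinc receptor hizr-1 did not pass the filter.

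Partners and outputs of the receptors gave no call either. Of 12 genes of cofactors and ligand synthesis 11 passed the filter, 4 had a positive and 7 a negative difference, their median was -0.16, and 0 had an unadjusted p under 0.05 in limma. mdt-15, the Mediator subunit that works with nhr-49, differed by 0.05 ± 0.08, and sbp-1, the worm SREBP, by -0.39 ± 0.20 (SE). daf-9, which makes the ligands of daf-12, differed by -0.16 ± 0.12 (SE). Of 10 known output genes all passed the filter, 6 were positive and 4 negative, their median was 0.03, and 0 had an unadjusted p under 0.05. fat-7, a desaturase controlled by nhr-49 and nhr-80, differed by -0.24 ± 0.21, and acs-2, the fatty acid activating enzyme that nhr-49 switches on in fasting, by 0.05 ± 0.26 (SE). acdh-1, the first enzyme of the second propionate route, differed by -0.21 ± 0.15 (SE). cyp-35D1, the P450 gene controlled by nhr-176, had -1.59, -1.81, -0.42 and -0.69 in aptf-1(gk794) and -1.51, -3.05, -2.26 and -0.88 in N2. Its spread was wide in both genotypes, and the difference was 0.80 ± 0.50 (SE).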

How the data were processed

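Total RNA of whole larvae (200 ng per sample) was amplified, labelled with Cy3 and hybridized to one-colour Agilent arrays. Per the file headers, the deposited scanner files hold linear spot intensities that Agilent Feature Extraction (version 10.7.3.1) had corrected for background. The authors also deposited a table of intensities for all arrays whose order on each array matched the scanner values (lowest Spearman correlation 0.999999) and whose 75th percentiles lay between 631.7 and 632.3, as after quantile normalization. It was used only as an alternative. The labels name limma as a tool of the submitters.

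Controls and flagged outlier spots (18 to 62 on an array) were dropped, spots of the same probe were averaged on the log2 scale, and the 75th percentile of each array, which ranged from 317 to 842, was subtracted. Between 72.2% and 79.7% of spots were well above background, and 0 were saturated. Of 43603 probes, 34266 (78.6%) were matched to 19794 genes through the RefSeq table of assembly WBcel235, by sequence name without isoform letter or by accession. Since the array design used an older build, the table served only for names, chromosomes and neighbours. Tested probes were those well above background on every one of the 4 arrays of either genotype, and a gene was the mean of its tested probes. Genes passed through 1 genotype can be near background in the other. The lmFit and eBayes functions of limma 3.58.1 (R 4.3.3) gave two-sided tests of genotype, the only term, and p was adjusted by Benjamini-Hochberg over 18313 genes and unnamed targets. A call needed an adjusted p under 0.05 and at least 1.5-fold, the fold threshold of the study. The procedure was tested on simulated data. Samples are called biological by the study, without saying whether cultures were separate, so p measures the spread between these samples.

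The members, lists and markers were chosen with earlier results of these data known. Genes were named where they belonged to a list of known roles, were among the 6 with the largest difference in each direction without overlap, among the 3 with the smallest p in each direction, or among the 3 with the widest gap between probes. All others named are described as chosen after their values were seen, or stand in a count that is named in full. Alternatives were other normalizations (quantile, median, normexp with offset 50 on the median spot signal), the deposited intensities, other filters, the median of probes, slide, position or replicate number in the fit, single probes, no minimum fold, and leaving out each array. Whether the replicate numbers pair the samples was checked by the correlation of deviations from the group means. Sequences and protein features of the receptors were not analysed here. Files were read and plotted in Python 3.11.15 (matplotlib 3.10.9, pandas 2.3.3, numpy 2.4.6).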

Additional observations from a re-analysis of the deposited data

Results flagged for a closer look

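Within the groups of 4 arrays, a single array stood far from the other 3 for 3 of 116 gene and genotype groups, where chance gives about 5.8. The measure was the gap to the nearest array over the whole range of the group, set against Dixon's limit for 4 values. nhr-156 was listed in both genotypes: mutant replicate 1 had -1.58, against -1.94, -1.96 and -1.998 on the other mutant arrays (0.854), and N2 replicate 3 had -1.94, against -2.21, -2.22 and -2.25 on the other N2 arrays (0.879). nhr-254 in N2 was listed with 0.867, since N2 replicate 3 had -3.87 and the other N2 arrays had -2.45, -2.45 and -2.23. No cause of these values was tested.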

How the results depend on the processing

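No receptor gene was called under any alternative, including single probes, no minimum fold change and the fit of slide with position. Leaving out each array in turn, the calls stayed at 0, the median difference was -0.063 to -0.0042, 20 to 32 genes had an unadjusted p under 0.05 (10.99% to 17.6%, against 8.35% to 13.7% of all genes), and 5 to 14 genes without overlap lay higher (2.75% to 7.69%, against 3.75% to 5.42%) and 10 to 22 lower (5.49% to 12.1%, against 6.10% to 8.79%). Fewer arrays overlap less by construction. Upward the count was 13 (7.14%, against 4.41% of all genes) without mutant replicate 2 and 8 (4.40%, against 5.42%) without mutant replicate 3. It was 11 (6.04%, against 5.34%) without N2 replicate 3 and 14 (7.69%, against 5.37%) without N2 replicate 4. Downward it was 22 (12.1%, against 8.79%) without mutant replicate 1 and 18 (9.89%, against 6.85%) without N2 replicate 1. Without both position 4 arrays, which are mutant arrays, the counts were 16 (8.79%, against 8.52% of all genes) and 21 (11.5%, against 11.3%). Within slide 1 the median was 0.052 with 33 higher (18.1%, against 17.7% of all genes) and 21 lower (11.5%, against 19.2%), and within slide 2 there were 25 higher (13.7%, against 15.4%) and 65 lower (35.7%, against 25.2%). With no filter on dim probes, 3 genes lay higher without overlap (1.65%, against 2.35% of all genes). With slide and position in the fit, 14 genes had an unadjusted p under 0.05 (7.69%, against 6.10% of all genes).

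Same-numbered samples of the 2 genotypes deviated together with correlations of -0.11, 0.24, 0.06 and 0.20, and 2 of 8 arrays correlated best with their own number, so the numbers were not taken to pair the samples. With the replicate block, 0 genes were called, 28 had an unadjusted p under 0.05 (15.4%, against 12.6% of all genes) and the median was -0.04.

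For the 56 receptor genes named, 1109 of 1171 alternative values kept their direction, 62 did not, 0 passed the threshold, and 34 genes kept it throughout. The changed values were as follows. With normexp, nhr-41 had 0.023, nhr-47 0.033 and nhr-64 -0.0084. With no filter, nhr-27 had 0.13 and nhr-118 0.0037, and with detection on all 8 arrays nhr-47 had 0.13. With the median of probes, nhr-27 had 0.077, nhr-40 0.14 and nhr-41 0.057. Within slide 1, nhr-10 had 0.095, nhr-40 0.015, nhr-47 0.029, nhr-49 -0.058, nhr-57 0.012 and nhr-114 0.038. Within slide 2, nhr-6 had 0.20, nhr-13 -0.12, nhr-27 0.024, nhr-41 0.15 and nhr-64 -0.086. With slide and position, nhr-10 had 0.033, nhr-13 -0.041, nhr-40 0.053, nhr-41 0.65, nhr-47 0.15, nhr-50 0.00076, nhr-51 1.19, nhr-57 0.40, nhr-64 -0.38, nhr-67 0.39, nhr-80 -0.25, nhr-86 0.14, nhr-97 0.023, nhr-118 1.02, nhr-176 -0.10, nhr-239 0.77, nhr-253 1.45 and nhr-254 1.82. Without both position 4 arrays, nhr-41 had 0.34, nhr-57 0.17, nhr-64 -0.076, nhr-86 0.11, nhr-114 0.012, nhr-253 0.15 and nhr-254 0.0064. Leaving out single arrays gave -0.128 to 0.032 for nhr-10, -0.040 to 0.112 for nhr-13, -0.398 to 0.012 for nhr-27, -0.331 to 0.243 for nhr-41, -0.012 to 0.111 for nhr-49, -0.225 to 0.033 for nhr-57, -0.056 to 0.092 for nhr-64, -0.068 to 0.033 for nhr-86 and -0.146 to 0.056 for nhr-114. The cause of these changes was not tested.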
